A study of Mus musculus with 12 samples.

Results

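SOCS feedback and IL-6 family signalling were described through 8 mouse genes in CD4+ T cells: the inhibitors Socs1, Socs2, Socs3 and Cish, the transcription factor Stat3, and the receptor chains Il6ra, Il6st and Il27ra. The 8 genes were taken by symbol from a table of 43626 genes, of which 23675 had any count. The set was selected on measured values: Socs3 counts of the GFP-positive cells, which were higher in the Het genotype than in the KO genotype. That difference is a description here and carries no test. All 8 passed the filter on low counts, which left 13238 genes.

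Cytokines of the IL-6 family bind receptors that share the chain gp130, encoded by Il6st. IL-6 reaches gp130 through the IL-6 receptor chain (Il6ra) and IL-27 through its own chain (Il27ra), and the JAK kinases bound to these receptors phosphorylate STAT3 and other STATs. STATs switch on SOCS genes, whose proteins then damp the receptors: SOCS3 binds gp130, SOCS1 inhibits JAK kinases, and SOCS2 and CIS (from Cish) are best known for restraining STAT5-using receptors. In CD4+ T cells IL-6 is known for its part in Th17 differentiation, and IL-27 for inducing IL-10.

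RNA was sequenced from splenic CD4+ T cells of 6 adult male Rag2-/- recipients, which make no T or B cells and keep their myeloid and NK cells. Each recipient had received naive CD45RBhi CD25- CD4+ T cells and was killed 3 weeks later, when GFP-positive and GFP-negative CD4+ cells were sorted from its spleen. Every donor carried a floxed copy of Eomes, which encodes the T-box factor EOMES, and a copy replaced by a GFP reporter, so GFP marks cells that switch on the locus. Donors of genotype Eomes flox/GFP without cre are called Het. Donors of genotype Eomes flox/GFP with Lck-cre, a recombinase driven by a T-lineage promoter, are called KO. Each genotype gave 3 GFP-negative and 3 GFP-positive libraries, 4 groups in all. Libraries of a genotype that share a number came from the same recipient, and Het and KO recipients were different mice. No group in these data has an intact pair of Eomes alleles.

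The sorts differed in size and depth. GFP-negative libraries came from 645000 to 2100000 cells with 11492908 to 18167236 counts, and GFP-positive libraries from 18000 to 117000 cells with 2116894 to 8608902 counts. Het GFP-positive replicate 2 and KO GFP-positive replicate 2 stood apart: 4 abundant features, the mitochondrial ribosomal RNA genes mt-Rnr1 and mt-Rnr2 among them, took 58.3% and 54.3% of their counts, which left 967089 counts elsewhere in the KO library. Eomes lay between 89.7 and 123.2 CPM (read counts scaled to a common library size) in Het GFP-positive, 31.5 and 46.6 in KO GFP-positive, and 1.94 and 9.18 in the GFP-negative libraries. Markers of CD4+ T cells were high throughout, with summed levels of 1383 to 2406 CPM over 6 genes, and lower in the GFP-positive library of 6 of 6 recipients. Myeloid markers (12 genes, all above 0 in every library) summed to 290 to 3510 CPM in the GFP-positive libraries, against 47.5 to 1548 CPM in the others, and were higher in the GFP-positive library of 6 of 6 recipients. The sum of 12 genes that rise during cell isolation, Fos and Jun among them, was also higher in 6 of 6, at 730 to 1130 CPM against 467 to 933 CPM.

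Stretches around the starts of Socs3 and Cish are shown because, of the members' windows searched, these held the palindrome TTCNNNGAA, a motif that STATs bind. The motif reads the same on both strands. RefSeq windows on GRCm38.p6, from 250 bases before to 50 after a gene's start, were searched, and 6 members had one. Matches are in capitals and are written 5′ to 3′ on the gene's strand. The Socs3 stretch is chr11:117969452-117969616, minus strand, and lies in no annotated exon. The Cish stretch is chr9:107296654-107296683, plus strand, and its matches lie in annotated exons. Both stretches lie inside the deposited gene spans given below. On the gene's strand those spans begin before the RefSeq starts used here.
Socs3: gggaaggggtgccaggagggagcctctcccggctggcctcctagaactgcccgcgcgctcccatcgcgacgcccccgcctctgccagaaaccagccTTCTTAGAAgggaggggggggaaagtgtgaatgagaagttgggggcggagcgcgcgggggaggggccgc
Cish: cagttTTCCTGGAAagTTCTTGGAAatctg
Socs3 held 1 match, which begins at -154 from the RefSeq start, and Cish held 2, which begin at 0 and 11 bases from it and thus lie at and after the start, and the windows of Socs1, Stat3, Il6ra and Il6st held 0. Of all 32851 windows, 8.3% held at least 1 match and 0.457% held 2 or more. A match is a run of letters, and binding was not measured.

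Socs3, the feedback inhibitor of gp130 (ENSMUSG00000053113.3, chr11:117966079-117970047, minus strand, positions on GRCm38 as in the deposited files here and below), was higher in GFP-positive cells of all 3 Het recipients and lower in 2 of 3 KO recipients. It stood at 52.6, 37.1 and 53.3 CPM in Het GFP-negative replicates 1, 2 and 3 and at 96.9, 63.1 and 86.8 CPM in the GFP-positive cells of the same recipients. In the KO recipients it stood at 40.3, 32.7 and 24.9 CPM in GFP-negative and at 14.7, 19.2 and 25.5 CPM in GFP-positive cells. Those of Het GFP-positive cells were the 3 highest of the 12 libraries, and the 3 lowest were KO libraries, of which 2 were GFP-positive.

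**Figure D1:**
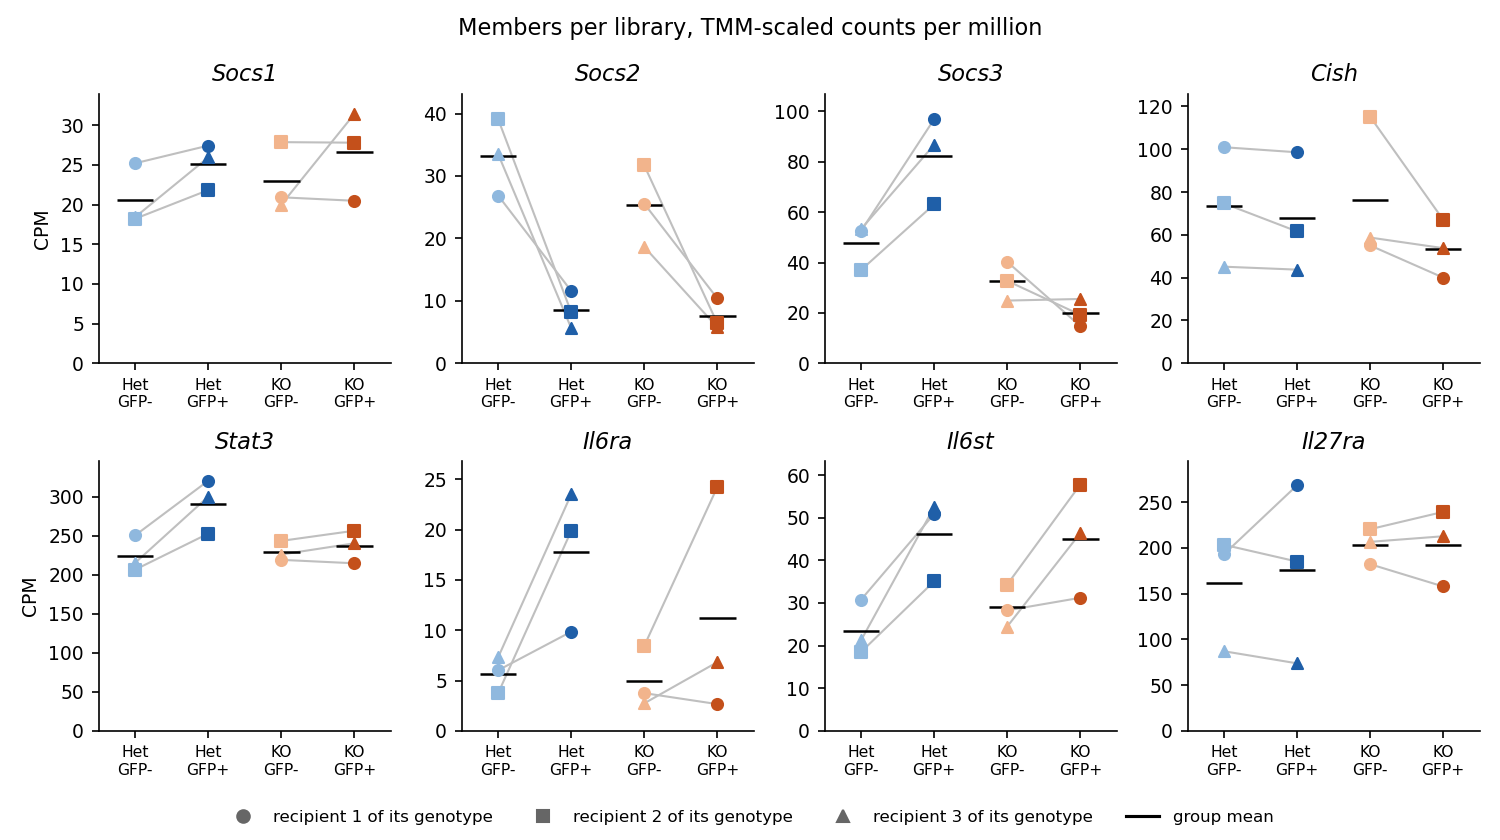
Levels of the 8 members in each of the 12 libraries, in TMM-scaled CPM on a linear axis from 0. Grey lines join the GFP-negative and GFP-positive libraries of a recipient, shapes give the recipient number within a genotype, and black bars are group means. Socs2 is lower at the GFP-positive end of all 6 lines, and Socs3 is higher there in the 3 Het recipients.

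Within recipients the log2 difference of Socs3 between GFP-positive and GFP-negative cells was 0.88, 0.77 and 0.70 for Het recipients 1, 2 and 3. For the KO recipients it was -1.44, -0.76 and 0.04. The Het differences were close to each other, and the KO differences were not: recipients 1 and 2 had less Socs3 in GFP-positive cells, and recipient 3 nearly the same. The fitted difference was 0.79 (SE 0.25) in Het and -0.71 (SE 0.26) in KO, and the Het value exceeded the KO value by 1.51 (SE 0.36). Since both GFP-positive groups served to choose Socs3, none of these values is tested. Between the GFP-positive groups themselves Socs3 was 4.15-fold higher in Het (82.3 ± 17.3 CPM, SD, n = 3) than in KO (19.8 ± 5.42 CPM), a log2 difference of 2.05 (SE 0.27). Its KO GFP-positive values rest on 27 to 217 counts per library.

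Between the GFP-negative groups, which the choice did not use, Socs3 averaged 47.7 ± 9.19 CPM in Het and 32.6 ± 7.70 CPM in KO (SD, n = 3 each). The groups overlapped, since Het replicate 2 at 37.1 CPM was below KO replicate 1 at 40.3 CPM. The log2 difference of 0.55 (SE 0.25) did not pass edgeR's quasi-likelihood test after Benjamini-Hochberg adjustment over all genes (adjusted p = 0.947). In that comparison 0.0% of genes tested were called by edgeR, 0.34% by DESeq2, 0.0302% with the recipient as a block, and 695 genes had an unadjusted p under 0.05. Socs3 was the 1 member among those 695 and was called by none of the 3 fits.

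Socs2 (ENSMUSG00000020027.14, chr10:95385362-95417180, minus strand), whose protein is best known for restraining growth hormone and STAT5 signals, was the member that fell in Het GFP-positive cells. Its levels were 26.9, 39.1 and 33.5 CPM in Het GFP-negative replicates 1, 2 and 3 and 11.6, 8.18 and 5.64 CPM in Het GFP-positive cells. KO GFP-negative libraries held 25.6, 31.7 and 18.6 CPM and KO GFP-positive libraries 10.4, 6.42 and 5.77 CPM. Every GFP-positive library was below every GFP-negative library, in both genotypes. The groups likewise did not overlap for 27.3% of genes in Het and 20.3% in KO. In bulk RNA, fewer cells that express a gene and less of its RNA per cell cannot be told apart.

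The fall of Socs2 in Het cells was 3.92-fold, from 33.1 ± 6.12 to 8.47 ± 2.98 CPM (SD, n = 3 each), with a log2 difference of -1.97 (SE 0.32) and an adjusted p of 0.00798 by edgeR's quasi-likelihood test. It was the 1 member called of the 7 tested, in a comparison where 3.45% of all genes were called, and 1.63% of all genes were called lower. The call held without each of the 6 Het libraries in turn, with adjusted p between 0.0135 and 0.0484. In KO cells the mean of Socs2 was 7.53 ± 2.51 CPM in the GFP-positive libraries, against 25.3 ± 6.53 CPM in the GFP-negative ones, a log2 difference of -1.70 (SE 0.32). This did not pass edgeR's test (adjusted p = 0.0824), in a comparison where 0.128% of genes were called and 0 of the 7 members tested. Without KO GFP-positive replicate 1 it did pass (adjusted p = 0.0188).

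With the recipient as a block, Socs2 was called in KO as well (log2 difference -1.64, edgeR adjusted p = 0.00376), in a fit that called 17.7% of genes there and 22.2% in Het. DESeq2 called it in both genotypes, where it called 9.02% of genes in Het and 3.05% in KO. The lowest KO value rests on 9 counts, in KO GFP-positive replicate 2. The genotypes' GFP differences were not told apart for Socs2 by edgeR's interaction test (-0.27, SE 0.45, adjusted p = 1.00). In the authors' deposited tables Socs2 also stood lower in GFP-positive cells, at -1.79 (SE 0.310, adjusted p 9.15e-07) in Het and -1.43 (SE 0.299, adjusted p 0.000447) in KO on the log2 scale.

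Cish (ENSMUSG00000032578.7, chr9:107296026-107302784, plus strand) encodes CIS, an inhibitor that STAT5 induces. It stood at 101, 74.6 and 45.1 CPM in Het GFP-negative replicates 1, 2 and 3 and at 98.5, 61.6 and 43.7 CPM in their GFP-positive counterparts. The KO recipients had 55.0, 115 and 58.7 CPM in GFP-negative and 40.0, 67.0 and 53.8 CPM in GFP-positive cells. The recipients differed from each other more than the sorts did: recipient means spanned 1.16 log2 units, and the largest difference within a recipient was 0.78. Cish was lower in the GFP-positive library of 6 of 6 recipients, as were 19.9% of all genes tested, by 0.03 to 0.78 on the log2 scale. Neither the Het difference of -0.11 (SE 0.38, adjusted p = 0.884) nor the KO difference of -0.53 (SE 0.38, adjusted p = 0.448) passed edgeR's test. With the recipient as a block, edgeR gave -0.11 (SE 0.15, adjusted p = 0.604) in Het and -0.44 (SE 0.15, adjusted p = 0.0612) in KO, also not called. Cish overlaps exons of Gm17041 and Gm17040 on the opposite strand, which had 11 counts each in all 12 libraries.

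Socs1 (ENSMUSG00000038037.4, chr16:10783808-10785536, minus strand), whose protein inhibits JAK kinases downstream of interferons and other cytokines, varied least of the inhibitors among the members. Het libraries 1, 2 and 3 held 25.2, 18.2 and 18.4 CPM in GFP-negative and 27.4, 21.8 and 25.9 CPM in GFP-positive cells. KO libraries held 20.9, 27.9 and 20.0 CPM in GFP-negative and 20.5, 27.8 and 31.4 CPM in GFP-positive cells. All 12 libraries lay within 0.78 log2 units, and the groups overlapped in both genotypes. The edgeR log2 differences were 0.29 (SE 0.22, adjusted p = 0.428) in Het and 0.21 (SE 0.22, adjusted p = 0.606) in KO.

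Stat3 (ENSMUSG00000004040.12, chr11:100885098-100939540, minus strand), the transcription factor that gp130 activates, had the narrowest range of the 8 members, 0.63 log2 units over 12 libraries. It stood at 251, 207 and 215 CPM in Het GFP-negative replicates 1, 2 and 3 and at 321, 253 and 300.4 CPM in Het GFP-positive libraries. The KO values were 219, 244 and 226 CPM in GFP-negative and 215, 257 and 241 CPM in GFP-positive cells. The Het groups did not overlap, as held for 27.3% of all genes tested. Each of the 3 Het recipients had more Stat3 in GFP-positive cells (0.36, 0.29 and 0.48 on the log2 scale). The Het difference of 0.38 (SE 0.15) did not pass edgeR's test (adjusted p = 0.168, and 0.0535 with the recipient as a block). In KO the difference was 0.05 (SE 0.15, adjusted p = 0.890), and the interaction, 0.33 (SE 0.21), had an edgeR adjusted p of 1.00. Stat3 and Stat5a overlap on opposite strands over 72 exon bases, 0.756% of the Stat3 exons.

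**Figure D2:**
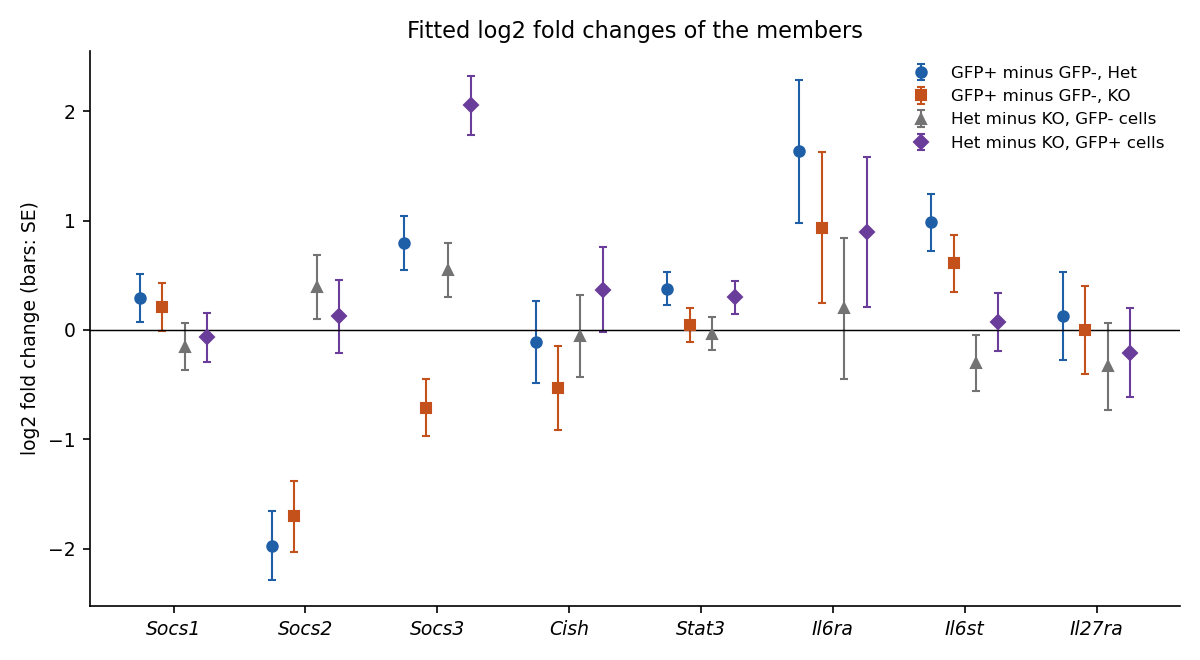
Fitted log2 fold changes of the 8 members in 4 comparisons, with bars of 1 SE from edgeR over 12 libraries. Only Socs2 passed the test in a comparison that was tested, Het GFP-positive minus GFP-negative; the Socs3 values that involve GFP-positive cells, and all values between the GFP-positive groups, are descriptions.

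Il6st (ENSMUSG00000021756.8, chr13:112464070-112510086, plus strand) encodes gp130, the shared signalling chain. It stood at 30.8, 18.5 and 21.3 CPM in Het GFP-negative replicates 1, 2 and 3 and at 50.9, 35.1 and 52.5 CPM in Het GFP-positive cells. KO recipients had 28.2, 34.3 and 24.4 CPM in GFP-negative and 31.2, 57.7 and 46.4 CPM in GFP-positive cells. GFP-positive cells had more Il6st in 6 of 6 recipients, by 0.72, 0.92 and 1.30 log2 units in Het and 0.14, 0.75 and 0.92 in KO. The same held for 17.7% of all genes tested. The Het groups did not overlap, as held for 27.3% of genes, and the KO groups did.

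The Het difference of Il6st was 0.99 on the log2 scale (SE 0.26) and missed edgeR's threshold (adjusted p = 0.0604). It passed with the recipient as a block (adjusted p = 0.00379) and without Het GFP-negative replicate 1 (adjusted p = 0.0483), and DESeq2 also called it (adjusted p = 0.0112). The KO difference of 0.61 (SE 0.26) missed the threshold as well (adjusted p = 0.273), passing with the block (adjusted p = 0.0437) and without KO GFP-positive replicate 1 (adjusted p = 0.0489). By edgeR's interaction test the genotypes' differences were not told apart (0.38, SE 0.37, adjusted p = 1.00). The authors' deposited table lists Il6st higher in Het GFP-positive cells by 0.91 on the log2 scale (SE 0.267, adjusted p 0.0100) and does not list it for KO.

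Il6ra (ENSMUSG00000027947.7, chr3:89869324-89913162, minus strand), the chain that binds IL-6, had few counts and the widest range, 3.11 log2 units. It stood at 6.02, 3.74 and 7.31 CPM in Het GFP-negative replicates 1, 2 and 3 and at 9.85, 19.9 and 23.5 CPM in Het GFP-positive cells. KO GFP-negative libraries held 3.74, 8.44 and 2.73 CPM and KO GFP-positive libraries 2.65, 24.2 and 6.82 CPM, the last 3 from 25 to 58 counts each. GFP-positive cells had more Il6ra in 5 of 6 recipients, KO recipient 1 being the exception at -0.47 on the log2 scale. The Het difference of 1.63 (SE 0.65) did not pass edgeR's test (adjusted p = 0.167), and did with the recipient as a block (1.58, adjusted p = 0.0133). The KO difference of 0.93 (SE 0.69) did not pass edgeR's test (adjusted p = 0.461), nor did it with the recipient as a block (0.85, adjusted p = 0.157). Without KO GFP-positive replicate 2 the KO difference was -0.07. That fit kept the GFP-negative library of the same recipient, the highest KO GFP-negative value at 8.44 CPM. In KO recipient 3 Il6ra was also higher in GFP-positive cells, at 6.82 against 2.73 CPM. The authors' deposited table lists Il6ra higher in Het GFP-positive cells by 1.42 (log2; SE 0.354, adjusted p 0.00171).

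Il6ra was highest in KO GFP-positive replicate 2 and in Het GFP-positive replicates 3 and 2, in that order. The same 3 libraries were 3 of the 4 with the highest myeloid marker sums, at 1260, 3510 and 2127 CPM, and the other was Het GFP-negative replicate 3 at 1548 CPM with 7.31 CPM of Il6ra. Il6ra rested on 34 and 51 counts in KO and Het GFP-positive replicates 2. In these libraries 4 abundant features took 54.3% and 58.3% of all counts. The lowest sum, 47.5 CPM in KO GFP-negative replicate 3, went with the second-lowest Il6ra. The lowest Il6ra, in KO GFP-positive replicate 1, came with a sum of 602 CPM. Among the markers, Csf1r, the receptor for the macrophage growth factor, reached at most 18.1 CPM in the GFP-negative libraries and 60.7 CPM in the others. The part of myeloid RNA in the levels of Il6ra, Il6st and the other members was not tested, nor was that of the genes that rise during cell isolation or of the lower CD4+ T cell marker sums.

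**Figure D3:**
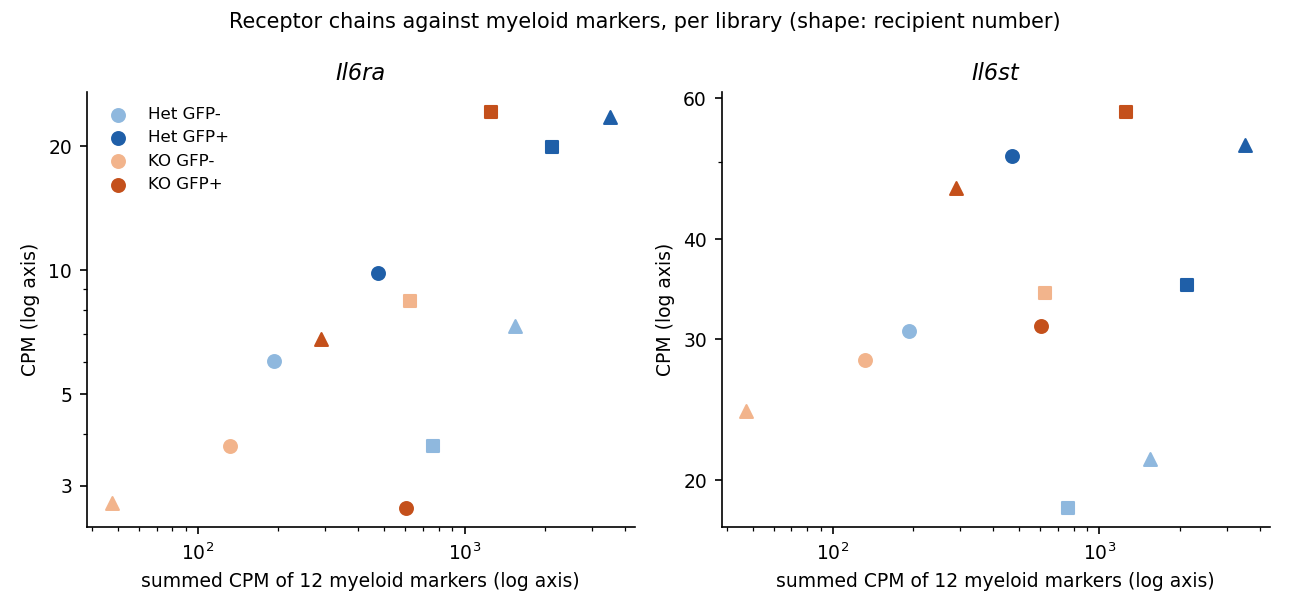
Il6ra and Il6st in CPM against the summed CPM of 12 myeloid markers, both on log axes, with 1 point per library, colours for groups and shapes for recipient numbers. For Il6ra the 3 highest points sit at sums of 1260 to 3510 CPM; Il6st shows high values also at lower sums, such as 50.9 CPM in Het GFP-positive replicate 1 at a sum of 472 CPM.

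Il27ra (ENSMUSG00000005465.8, chr8:84030287-84042575, minus strand) encodes the chain that pairs with gp130 for IL-27 and spread more between recipients than between sorts. The Het recipients 1, 2 and 3 had 193, 203 and 87.0 CPM in GFP-negative and 269, 185 and 73.8 CPM in GFP-positive cells. The KO recipients had 182, 221 and 207 CPM in GFP-negative and 158, 240 and 213 CPM in GFP-positive cells. Both libraries of Het recipient 3 lay below all other libraries. Recipient means spanned 1.52 log2 units, against at most 0.47 between the sorts of a recipient. The GFP differences were 0.12 (SE 0.40, adjusted p = 0.879) in Het and 0.00 (SE 0.40, adjusted p = 0.996) in KO by edgeR. Il27ra shares 9 exon bases with Palm3 on the opposite strand, which had 112 counts in all.

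Across comparisons, edgeR called 0 of the 8 members between the GFP-negative groups and 0 of the 7 tested for the interaction, where 0.00755% of genes were called and 264 had an unadjusted p under 0.05; none of the 7 was among these. DESeq2 (0.0831% of genes called for the interaction) and the block (0.0755%) also called 0 members in both comparisons. The median log2 difference over the 8 members was 0.34 in Het against -0.02 over all genes tested, and 0.02 in KO against -0.02. Both medians include Socs3 (0.79 in Het and -0.71 in KO), whose choice used both GFP-positive groups, so they are descriptions only. Between the GFP-positive groups, where Socs3 was chosen and 0.106% of genes were called, the other members differed by -0.21 (Il27ra) to 0.90 (Il6ra, SE 0.69) on the log2 scale. In that contrast Stat3 was 291 ± 34.8 CPM in Het and 237 ± 21.1 CPM in KO (SD, n = 3 each), a difference of 0.30 (SE 0.15). Socs3 was the 1 member whose GFP-positive groups did not overlap, as held for 7.48% of genes.

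Levels of different genes can be compared per exon length. By CPM per kilobase of exon, Il27ra was the highest member in all 4 group means, at 60.7 to 76.6, followed by Stat3 at 23.5 to 30.6, and their libraries overlapped only in Het GFP-positive cells. Next in Het GFP-negative cells came Socs1 at 16.9 and Socs3 at 16.5, and these groups of libraries overlapped. In Het GFP-positive cells Socs3 followed Stat3 at a mean of 28.5 (21.8 to 33.5 over 3 libraries), where its libraries overlapped those of Stat3 above it and Socs1 below it. In KO cells Socs3 came after Cish, at 11.3 ± 2.66 in GFP-negative and 6.86 ± 1.87 in GFP-positive libraries (SD, n = 3 each), and the libraries of the pair overlapped in both sorts. Cish itself ran from 8.35 to 11.9.

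The receptor chains for IL-6 and Socs2 were the 3 lowest members per length in each group. In Het GFP-negative cells Socs2 (3.48 CPM per kilobase) led Il6st (2.12) and Il6ra (1.70), and only the last pair overlapped. In Het GFP-positive cells Il6ra (5.31) and Il6st (4.16) overlapped each other, Il6ra also overlapped Cish above it, and Socs2 was last at 0.89. KO GFP-negative cells had Socs2 at 2.65, Il6st at 2.61 and Il6ra at 1.49, each overlapping the next. In KO GFP-positive cells Il6st (4.06) and Il6ra (3.36) lay above Socs2 (0.79), whose libraries overlapped those of Il6ra. Exon length here is the sum of all annotated exons, so a gene whose cells use a short transcript is set too low.

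**Figure D4:**
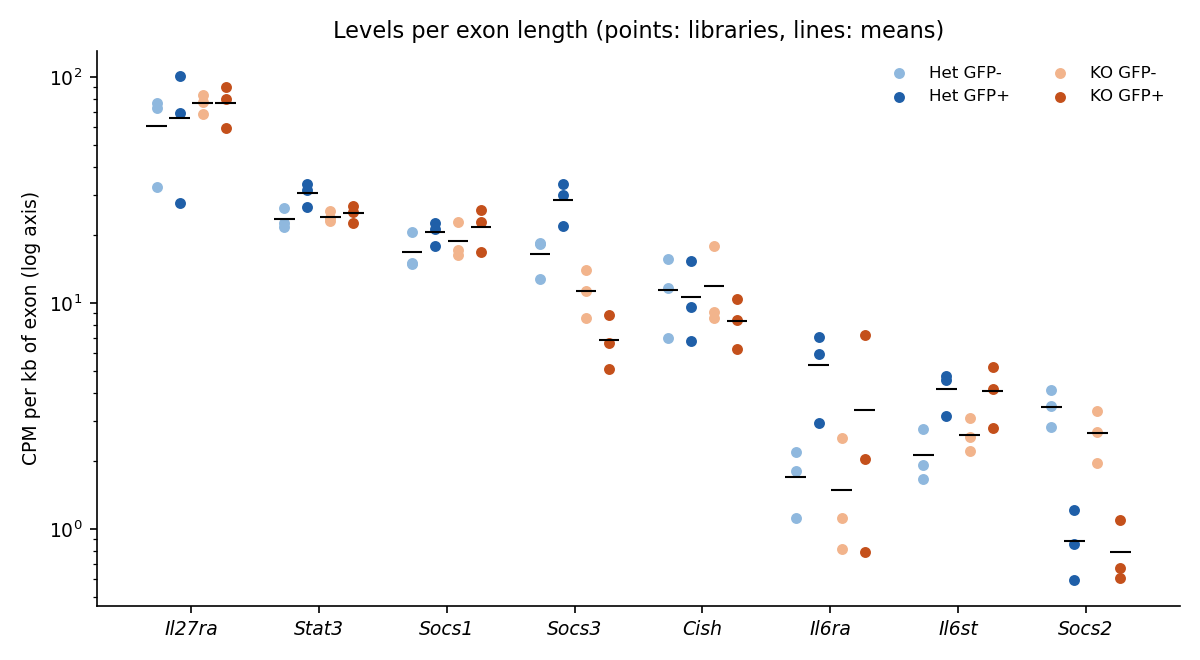
CPM per kilobase of annotated exon of the 8 members on a log axis, with 1 point per library and a line at each group mean. Il27ra and Stat3 lead, and the Socs3 means run from 6.86 in KO GFP-positive to 28.5 in Het GFP-positive libraries.

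The members did not vary as one unit over the 12 libraries. Pearson correlations of log2 CPM ran from -0.82 (Socs2 with Il6st) to 0.86 (Socs1 with Il6st), and Stat3 with Il6st gave 0.80. Socs3 correlated with Stat3 at 0.62 and with Socs1 and Socs2 at 0.06 and 0.05. These are descriptions over 12 libraries that share recipients and sorts, and a sort difference alone moves them. The search for likeness covered 9820 genes averaging 5 CPM or more. Those most like Socs3 were Srgap3 (r = 0.90), Bcl2 (0.88), Prr7 (0.87), Fkbp5 (0.86) and Rnf157 (0.85). Of these, Bcl2, an inhibitor of cell death, spanned 110 to 136 CPM in Het GFP-positive and 39.4 to 41.3 CPM in KO GFP-positive libraries. In GFP-negative libraries it spanned 87.6 to 108 CPM in Het and 58.1 to 121 CPM in KO. Fkbp5, a co-chaperone of steroid receptors, spanned 203 to 230 CPM in Het GFP-positive and 96.2 to 131 CPM in KO GFP-positive libraries. Likeness to Socs3, which was chosen on the GFP-positive groups, selects for such gaps, so they are descriptions only. Closest to each other member were Notch1 for Socs1 (0.91), Aqp3 for Socs2 (0.97), Alg2 for Cish (0.93), Cdk6 for Stat3 (0.95), Axl for Il6ra (0.98), Ncoa1 for Il6st (0.97) and Mus81 for Il27ra (0.99).

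Around the members, 73 other genes of the pathway were listed, and 65 had enough counts for a test. By edgeR, 5 of them rose and 4 fell in the GFP-positive cells of Het recipients, and 0 rose and 2 fell in KO, where 3.45% and 0.128% of all genes were called. With the recipient as a block these counts were 14 and 9 in Het and 4 and 5 in KO, in fits that called 22.2% and 17.7% of all genes. Between the GFP-negative groups and for the interaction 0 were called by edgeR, and 0 with the block, which between the GFP-negative groups was fitted by limma.

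Most listed ligands of the family were scarce, Clcf1 and Osm excepted. Of 9 listed, 5 were not tested, among them Il6 with 21 and Il27 with 47 counts over all 12 libraries. The highest of the 4 tested were Clcf1, which signals through the CNTF receptor and gp130, at 28.6 ± 9.46 CPM in Het GFP-negative and 31.8 ± 13.2 CPM in Het GFP-positive cells, and Osm, the gene of oncostatin M, at 23.0 ± 3.45 and 19.3 ± 1.88 CPM (SD, n = 3 each). None of the 4 was called in any comparison, by edgeR or with the block. Nor was any of the 3 other receptors of the family that could be tested (Lifr, Il11ra1 and Il31ra). The 2 proteases that shed the IL-6 receptor (Adam10 and Adam17) were not called either.

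Il10ra, the ligand-binding chain of the IL-10 receptor, which uses STAT3 without gp130, was the pathway gene with the clearest rise. It stood at 45.9, 25.4 and 57.0 CPM in Het GFP-negative replicates 1, 2 and 3 and at 256, 175 and 214 CPM in Het GFP-positive cells. KO libraries held 84.2, 74.6 and 91.4 CPM in GFP-negative and 133, 216 and 139 CPM in GFP-positive cells. The groups did not overlap in either genotype, as held for 27.3% of genes in Het and 20.3% in KO. The Het difference was 2.33 on the log2 scale (SE 0.29, edgeR adjusted p = 0.00219) and held under all 12 alternatives tried. The KO difference of 0.95 (SE 0.28) did not pass edgeR's test (adjusted p = 0.198), and did with the block (adjusted p = 0.0146).

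Of the other 3 receptors in that list, 0 were called by edgeR without the block and 3 with it in Het cells, where the block called 22.2% of all genes. Their names were picked with the values in view: Il10rb and Il21r were higher by 0.77 (SE 0.21) and 0.49 (SE 0.24) on the log2 scale, and Il23r, the IL-23 receptor chain of Th17 cells, lower by a log2 difference of -2.46 (SE 0.76). The median log2 difference of the 4 genes was 0.63 in Het and 0.18 in KO, against -0.02 over all genes in each.

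Among 16 genes known to be induced through STAT3 in T cells, edgeR called 0 as higher in GFP-positive cells, and the same 2 as lower in either genotype, against 3.45% of all genes called in Het and 0.128% in KO. With the block 2 were higher (Fos and Prdm1) and 3 lower (Ahr and Rora among them) in Het, and 1 higher (Fos) and 3 lower (Ahr and Hif1a among them) in KO, where 22.2% and 17.7% of all genes were called. Fos is also one of the genes that rise during cell isolation, whose part was not tested. Of the genes called without the block, Ahr encodes the aryl hydrocarbon receptor. It stood at 35.0, 35.1 and 43.5 CPM in Het GFP-negative replicates 1, 2 and 3. In Het GFP-positive cells it stood at 4.93, 8.18 and 12.9 CPM. The Het groups of Ahr did not overlap, as held for 27.3% of genes. Its means were 37.8 ± 4.87 CPM in Het GFP-negative and 8.68 ± 4.02 CPM in Het GFP-positive cells (log2 difference -2.10, SE 0.31, edgeR adjusted p = 0.00647). In KO it averaged 23.8 ± 6.16 and 4.67 ± 0.277 CPM (-2.37, SE 0.34, adjusted p = 0.0187), a call lost without 4 of the 6 KO libraries in turn: KO GFP-negative replicates 1 and 2 (adjusted p = 0.0690 and 0.0511) and KO GFP-positive replicates 2 and 3 (0.0658 and 0.165). The median of the 16 genes was 0.09 in Het and -0.07 in KO. Other genes of the list, such as Bcl3, Pim1, Batf and Maf, were not called.

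Genes known to be induced by IL-27 in CD4+ T cells numbered 11, and edgeR called 3 higher and 0 lower in Het GFP-positive cells and 0 in KO, where 3.45% and 0.128% of all genes were called. Il10 stood at 1.13, 0.14 and 1.53 CPM in Het GFP-negative and 17.7, 1.95 and 30.7 CPM in Het GFP-positive replicates 1, 2 and 3, the second from 5 counts. Its log2 difference was 4.18 (SE 0.95, edgeR adjusted p = 0.0347), which missed the threshold without any one of 5 of the 6 Het libraries, all but Het GFP-positive replicate 2 (adjusted p 0.0546 to 0.140). Lag3, an inhibitory receptor, rose from a mean of 11.7 CPM (4.28 to 18.7 over 3 libraries) to 61.7 CPM (44.8 to 85.2) (2.42, SE 0.49, adjusted p = 0.0219), a call lost without Het GFP-negative replicates 2 or 3 or Het GFP-positive replicate 3 (adjusted p 0.0516 to 0.0664). Irf1, an interferon-induced transcription factor, rose from 267 ± 36.2 to 499 ± 72.8 CPM (0.90, SE 0.18, adjusted p = 0.0192), a call lost without Het GFP-negative replicate 2 (0.110) or Het GFP-positive replicate 1 (0.0629). The median of the 11 genes was 0.59 in Het and 0.24 in KO. Il27ra itself had no called difference in either genotype.

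Genes known to be induced through STAT5, the pathway on which SOCS2 and CIS act, numbered 8. Of these edgeR called 1 between the sorts in Het cells, where 3.45% of all genes were called. It was Il2ra, the high-affinity chain of the IL-2 receptor. It stood at 78.8, 71.1 and 72.8 CPM in Het GFP-negative and at 21.2, 16.4 and 26.3 CPM in Het GFP-positive replicates 1, 2 and 3 (log2 difference -1.78, SE 0.27, edgeR adjusted p = 0.00647). In KO it averaged 38.7 ± 6.63 and 18.7 ± 7.05 CPM (SD, n = 3 each; -1.06, SE 0.27, adjusted p = 0.172, and 0.0129 with the block). Bcl2, of the same list, was the 1 pathway gene called between the GFP-positive groups, where 0.106% of all genes were called. It was higher in Het (127 ± 14.3 CPM) than in KO (40.4 ± 0.965 CPM). Its log2 difference was 1.66 (SE 0.25, edgeR adjusted p = 0.0324). This call was lost under 8 of 12 alternatives, the block among them (limma adjusted p = 0.0591). Over the 12 alternatives the adjusted p ran from 1.78e-06 to 0.181.

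The other brakes on JAK-STAT signalling moved in both directions. Of 9 listed, edgeR called Ptpn11 (SHP2, a phosphatase that binds gp130) higher and Ptpn2 (a phosphatase that acts on JAK1 and JAK3) lower in Het GFP-positive cells. In that comparison 3.45% of all genes were called. Ptpn11 averaged 112 ± 6.43 and 186 ± 10.1 CPM (0.73, SE 0.16, adjusted p = 0.0320) and lost its call without any one of the 6 Het libraries (adjusted p 0.0610 to 0.146). Ptpn2 averaged 66.9 ± 9.55 and 36.0 ± 4.83 CPM (-0.89, SE 0.21, adjusted p = 0.0394) and, of the 6 Het libraries left out in turn, kept its call only without Het GFP-negative replicate 1 (0.0570 to 0.176 without the others). The remaining SOCS genes, Socs4, Socs5, Socs6 and Socs7, were not called in any comparison, with or without the block.

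Of the 10 JAK kinases and other STATs, edgeR called 0 without the block in any comparison. With the block 4 were higher (Jak3, Tyk2 and Stat2 among them) and 1 lower (Stat4) in Het, and 2 higher (Jak3 and Stat2) in KO, against 22.2% and 17.7% of all genes called, named after their values were seen. Stat4, which IL-12 uses, was 122.6 ± 17.4 CPM in Het GFP-negative and 85.5 ± 2.97 CPM in Het GFP-positive cells (-0.52, SE 0.17, edgeR adjusted p = 0.117, and 0.0202 with the block). The median of the 10 was 0.31 in Het and 0.23 in KO on the log2 scale, against -0.02 over all genes.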

How the data were processed

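Per the labels' protocols, RNA was extracted with TRI reagent and depleted of ribosomal RNA in a TruSeq Stranded Total RNA Gold library preparation. The submitters' processing notes name bcl2fastq 1.8.4, TopHat2 2.0.13, featureCounts 1.5.0-p1, DESeq2 1.6.1 and mm10; the strand setting of the counting is not given in the sources used here. The authors deposited raw counts per gene with, per the file headers, the coordinates and exon length of each gene. The authors also deposited tables of genes with an adjusted p-value under 0.05, with mean normalized counts (a signal), log2 fold changes, a test score without fixed range and p-values. In these the table of the GFP-positive groups is signed KO minus Het, as the counts show, and Socs3 has -1.68 there (SE 0.269) among 77 genes. That listing is a description, since Socs3 was chosen on this contrast.

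Counts were scaled by TMM and filtered by filterByExpr (minimum count 10, total 15). One mean per group was fitted over 12 libraries with edgeR 4.0.16 (R 4.3.3). The test was quasi-likelihood, two-sided, with Benjamini-Hochberg adjustment over all tested genes and a call at FDR 0.05. The same fit was also run on simulated counts whose means and spread came from these data, with the outcome not reported here. The SE is the log2 fold change divided by the root of F. CPM are TMM-scaled, and correlations use log2 CPM with a prior count of 2. Same-numbered libraries of a genotype share a recipient, and their deviations from the group means correlated at 0.241 to 0.617, so an alternative fit took the recipient as a block (between genotypes with limma 3.58.1). DESeq2 1.42.0 was another alternative. Libraries are separate recipients per genotype; whether donors differed is not given in the sources used here.

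The members and gene lists were chosen with earlier results of these data known. Named were all members, genes of each list past FDR 0.05 that averaged 5 CPM or more in whichever group was higher (at most 4 per direction), and the genes most like each member. Further listed genes, such as Stat4, Il10rb and Fos, were named outside this rule with their values in view. B and NK cell marker sums stayed at or under 8.87 CPM, CD8 markers at or under 4.56 CPM, and erythroid markers ran from 4.01 to 208 CPM. Some listed genes are not reported here by name and are included in the counts. Proteins were not analysed here.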

Additional observations from a re-analysis of the deposited data

How the results depend on the processing

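Socs3 is left out of the counts between the sorts. Members called in Het GFP-positive against GFP-negative cells numbered 1 as reported, where 3.45% of all genes were called. The number was 2 with DESeq2 (9.02% of all genes) and 3 with the recipient as a replicate block (Socs2, Il6st and Il6ra, 22.2%). It was 2 without the filter on low counts and 1 to 2 without each library in turn. In KO the number was 0 as reported (0.128% of all genes), 1 with DESeq2 (3.05%) and 2 with the block (Socs2 and Il6st, 17.7%). It was 1 without the filter and 0 to 2 without each library. The shares of all genes called without the filter or without a library are not given here. The counts for the GFP-negative groups and the interaction were 0 under all alternatives run. Between the GFP-positive groups no count is given, because Socs3 was chosen on that contrast. The Socs2 call in Het held under all alternatives. Of 520 values of single members under alternatives, 33 changed sign, and none of these belonged to a called member and comparison. The causes were not tested.

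Without each library in turn, the log2 difference of Cish ran from -0.51 to 0.19 in Het, from -0.36 to 0.33 between GFP-negative groups and from -0.014 to 0.61 between GFP-positive groups. Il27ra ran from -0.35 to 0.53 in Het, -0.13 to 0.16 in KO, -0.33 to 0.52 for the interaction and -0.66 to 0.16 between GFP-positive groups. Il6ra ran from -0.12 to 0.79 between GFP-negative groups and from -0.070 to 1.56 in KO, and Stat3 from -0.011 to 0.12 in KO. Between GFP-positive groups Il6st ran from -0.18 to 0.24, Socs1 from -0.27 to 0.096 and Socs2 from -0.23 to 0.48. For the interaction Socs1 ran from -0.091 to 0.25 and Socs2 from -0.62 to 0.11. In KO, Il27ra turned from -0.0033 to 0.033 with RLE scaling, 0.028 without the 4 abundant features, 0.036 with DESeq2 and 0.038 with only the groups compared, and Stat3 was -0.020 without the filter. With the block, Socs2 was -0.028 between the GFP-positive groups. Counts limit the precision of low genes: single GFP-positive libraries held 9 counts of Socs2, 25 of Il6ra and 1 of Il10.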
